A study of Homo sapiens with 44 samples.

Results

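Liver-secreted protein genes were followed through the differentiation of H1 human embryonic stem cells towards heart muscle. They are 35 of the 60499 gene identifiers counted, and each encodes a protein that the liver, or the yolk sac before it, releases into the blood, or a protein needed to assemble such particles (MTTP). The genes were chosen by name and from the measured levels: a rise from day 5, a loss by day 90 and variation in common from well to well. Those 3 features are therefore described below without a test. The data comprise 44 total-RNA libraries in 12 groups, each library from 1 culture well, and levels are CPM, counts scaled by TMM to a common library size, unless TPM, which also corrects for transcript length, is named.

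All groups are unmodified H1 cells, and no group lacks the treatment at the later days. The pluripotent group was kept on laminin LN-521. All other groups were grown on LN-521 with LN-221: day 0 in Nutristem medium, days 1 and 3 under CHIR99021, an inhibitor of the kinase GSK3, and day 5 under IWP2, an inhibitor of Wnt production. Days 7 and 9 followed without inhibitor, still in RPMI 1640 with B27 lacking insulin, and days 11, 14, 20, 30 and 90 were kept with CTS B-27 supplement. There were 5 wells at days 5, 7, 9 and 11 and 3 in every other group. The series' own description gives 3 wells for day 11, whereas its labels hold 5, numbered 1, 2, 5, 6 and 7. The labels call the wells biological replicates, but nothing says that they came from separate differentiations, so p-values measure the spread between wells, which may be technical.

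Library totals ran from 6937136 to 33498022 counts, RNA integrity numbers (RIN) from 7.4 to 10, and the libraries were spread over 5 lanes. A count of 3, taken as the floor, corresponds to between 0.0896 and 0.432 CPM. The summed level of 6 cardiomyocyte markers (TNNT2, MYH6, MYH7, ACTN2, MYL7, NKX2-5) was 447.6 ± 143 CPM at day 5 (SD, n = 5), was 11410 ± 3160 by day 9 (n = 5) and stood at 28380 ± 19430 on day 90 (n = 3).

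The products of these genes carry lipids, hormones, vitamins and metals in plasma, form clots and dissolve them, or restrain proteases. Hepatocytes make most of them in the adult, while the visceral endoderm of the yolk sac makes many of the same proteins in the embryo before the liver forms, AFP, TTR and the apolipoproteins among them. Their transcription in both tissues is known to depend on a shared set of factors, HNF4A, FOXA and C/EBP proteins among them, which bind close to the start sites.

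Promoter sequence was available in the RefSeq table (GRCh38.p14) for 29 of the 35 genes. The set below is shown because it carries matches to the HNF1 element, the motif whose share differed most from that of all promoters. The 250 bases before each start were searched on both strands. The paired HNF1 element was searched as GTTAAT, any 1 base and ATTAAC, with up to 2 mismatches. It was found in 10 of 29 members (34.5%), and in 418 of 27305 genes with a promoter (1.53%). Every match in the members had 2 mismatches. Printed are the 200 bases before the start, 5′ to 3′ on the gene's strand, with each HNF1 match in capitals: AFP at chr4:73436021-73436220 (+), ALB at chr4:73404087-73404286 (+), FGA at chr4:154590743-154590942 (-), FGB at chr4:154562780-154562979 (+), F2 at chr11:46719013-46719212 (+), PLG at chr6:160702044-160702243 (+) and APOM at chr6:31655694-31655893 (+).
AFP: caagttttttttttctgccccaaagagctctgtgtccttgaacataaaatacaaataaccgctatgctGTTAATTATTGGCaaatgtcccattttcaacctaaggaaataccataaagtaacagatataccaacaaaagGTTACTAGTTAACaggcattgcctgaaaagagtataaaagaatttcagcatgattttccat
ALB: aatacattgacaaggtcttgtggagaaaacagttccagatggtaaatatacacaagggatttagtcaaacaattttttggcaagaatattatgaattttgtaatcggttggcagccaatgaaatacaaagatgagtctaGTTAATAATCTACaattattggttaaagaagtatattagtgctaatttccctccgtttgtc
FGA: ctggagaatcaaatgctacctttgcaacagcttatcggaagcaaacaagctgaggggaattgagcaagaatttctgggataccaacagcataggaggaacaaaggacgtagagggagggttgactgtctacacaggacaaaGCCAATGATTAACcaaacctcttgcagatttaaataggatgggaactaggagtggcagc
FGB: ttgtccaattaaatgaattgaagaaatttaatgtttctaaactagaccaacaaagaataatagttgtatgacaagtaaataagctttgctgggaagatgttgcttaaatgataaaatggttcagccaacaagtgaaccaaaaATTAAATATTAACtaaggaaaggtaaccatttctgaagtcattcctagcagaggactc
F2: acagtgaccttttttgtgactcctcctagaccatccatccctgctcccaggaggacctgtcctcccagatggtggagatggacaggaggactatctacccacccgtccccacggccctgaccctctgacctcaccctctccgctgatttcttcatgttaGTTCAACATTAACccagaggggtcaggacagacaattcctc
PLG: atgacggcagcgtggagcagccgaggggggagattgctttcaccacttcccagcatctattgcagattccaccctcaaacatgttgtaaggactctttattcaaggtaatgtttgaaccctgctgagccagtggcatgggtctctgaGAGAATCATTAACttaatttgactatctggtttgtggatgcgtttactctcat
APOM: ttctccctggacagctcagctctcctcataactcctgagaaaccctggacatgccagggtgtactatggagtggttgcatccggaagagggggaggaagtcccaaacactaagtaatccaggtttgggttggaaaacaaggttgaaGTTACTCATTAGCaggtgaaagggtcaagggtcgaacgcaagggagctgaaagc

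In the printed promoters the match began 61 bases before the start in ALB, 59 in FGA, 58 in FGB (89 from another annotated start), 54 in APOM, 53 in PLG and 41 in F2. AFP, the albumin of the embryo, held a match at 61 bases and another at 132. The remaining matches began at 110 in MTTP, at 140 and 49 in APOH and at 56 in HABP2. The promoter of AHSG, which encodes the mineral-binding carrier fetuin-A, had no HNF1 match but an exact HNF4 element on the minus strand and is shown for that element, in capitals, at chr3:186612860-186613059 (+).
AHSG: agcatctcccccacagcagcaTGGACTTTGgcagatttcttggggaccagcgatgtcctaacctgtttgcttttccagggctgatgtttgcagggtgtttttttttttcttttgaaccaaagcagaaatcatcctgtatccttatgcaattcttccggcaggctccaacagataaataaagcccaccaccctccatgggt
The HNF4 repeat CAAAGTCCA, with up to 1 mismatch, was present in 9 of 29 members (31%) and in 7.32% of all promoters. TGTTTAC or TGTTTGC, the FOXA core, was found exactly in 8 members (27.6%) and 7.41% of all. The loose C/EBP pattern TTNCNNAA was found in 17 members (58.6%) and 38.1% of all. SERPINA1 and AHSG held the HNF4, FOXA and C/EBP patterns together. A match is a run of letters and does not show that a factor binds there.

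The 35 genes were together a minor part of the RNA before day 5 and a visible part of it from day 9 to day 20. Their summed level was 360.0 ± 8.73 CPM at day 3 (SD, n = 3). On days 5, 7, 9 and 11 it was 1551 ± 640, 1879 ± 727, 4626 ± 3834 and 5201 ± 6268 CPM (n = 5 each). On days 14, 20, 30 and 90 it was 7048 ± 725, 4013 ± 2894, 320.8 ± 264 and 230.7 ± 126 CPM (n = 3 each). Single wells weigh on these means: without day 9 well 2 the day 9 mean was 2964, and without day 20 well 3 the day 20 mean was 2380. APOE, which is made in many tissues, supplied 89.3% to 92.2% of the sum in the 3 pluripotent wells, and AFP 30.3% to 46.8% of it at day 14. Without AFP and APOE the sum had means of 66.2, 1090, 3805 and 77.6 CPM on days 3, 5, 14 and 90. In RNA from whole wells, fewer cells of a type and less RNA per cell cannot be told apart.

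The genes did not all reach 10% of their own peak on the same day. As a mean over wells, 17 of 35 first reached it at day 5 and 13 at day 9, with 1 (PLG) at day 7. This measure depends on the height of the later peak and does not date the start of a rise. FGG and AFP, counted at day 9, already had day 5 means 10.6 and 3.66 times those of day 3, FGG from near the floor. The figure was 11.0 for APOM, counted at day 5, and 0.696 for SERPINA5, counted at day 9. APOC1 and APOE had already reached it at day 0, and F10 and the barely detected APOC2 at day 3, so these 4 do not follow a rise from day 5. From day 3 to day 5 the group mean was at least 4-fold higher for 22 of 35 members, a size reached by 5.58% of all 22955 genes tested. From day 5 to day 7 it was 6 members (2.78% of all genes), and from day 7 to day 9 it was 17 (3.22%). The choice of members used these steps, so the shares are background only.

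**Figure D1:**
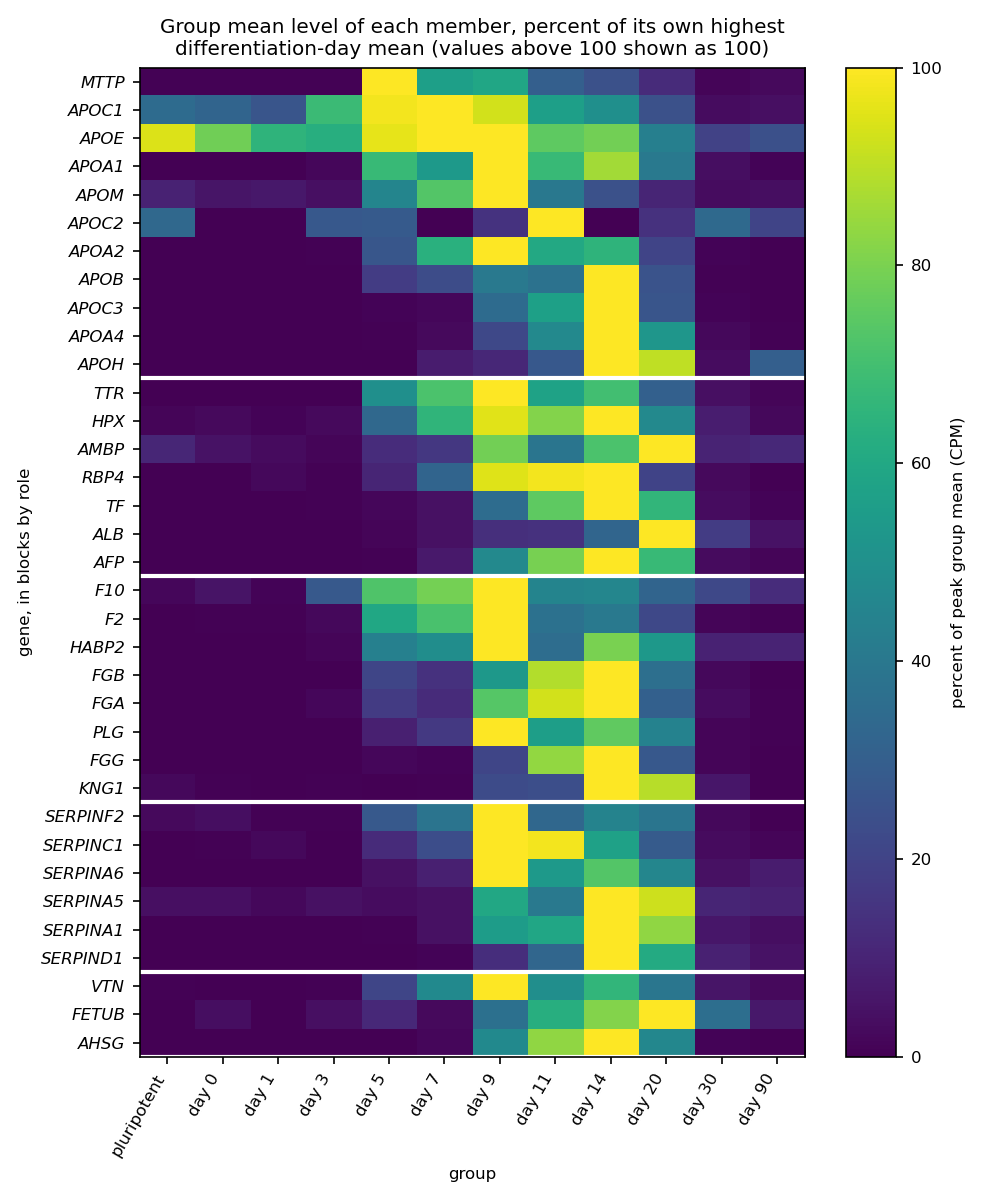
Group mean CPM of each of the 35 genes (rows, in blocks by role) in the 12 groups (columns), as a percent of the gene's own highest differentiation-day mean. At day 5 MTTP is at its peak, TTR, SERPINF2 and VTN, the highest of their blocks, are at 49.7%, 27.9% and 21.0% of theirs, and AHSG and SERPINA1 are under 1%.

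Among the lipoprotein genes, the assembly factor MTTP came early and APOA4 and APOC3 late. MTTP, the lipid transfer protein that loads lipid onto APOB, had its highest group mean at day 5, at 143.5 ± 25.7 CPM (SD, n = 5), against 84.7 ± 47.2 at day 9 and 35.6 ± 9.77 at day 14 (n = 3). APOB (chr2:21001429-21044073, hg38, minus strand), the scaffold of very-low-density and low-density lipoproteins, read 67.98, 113.8, 395.4, 79.25 and 108.3 CPM in day 5 wells 1 to 5, against 2.781, 3.016 and 2.453 at day 3. It was 266.8, 74.6, 896.9, 339.3 and 144.0 in day 9 wells 1, 10, 2, 3 and 4, and 1135, 569.7 and 858.7 at day 14. Every day 5 well was above every day 3 well, and the day 14 wells overlapped only with the highest of the day 9 wells.

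APOA2, a component of high-density lipoprotein, had the highest TPM of the lipoprotein genes at day 9, 259.3 ± 136 (SD, n = 5). Its CPM was 1.112, 1.266 and 1.547 at day 3, and 26.33, 50.89, 112.3, 19.0 and 38.38 in day 5 wells 1 to 5. At day 9 it was 186.0, 98.26, 391.5, 169.8 and 82.55 in wells 1, 10, 2, 3 and 4. No day 5 well overlapped with day 3. APOA1, the main high-density lipoprotein protein, stood at a mean of 255.4 CPM at day 5, 67.3% of its peak, whereas APOA4 and APOC3 stood at 0.563% and 0.994% of theirs on that day and peaked at day 14 at 52.6 and 35.5 CPM.

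APOC1 and APOE, exchangeable apolipoproteins encoded side by side, had the highest levels of the members in pluripotent cells. APOC1 was 15.43, 14.21 and 16.84 CPM in the pluripotent wells, 30.35, 31.16 and 29.47 at day 3 and 1.658, 1.461 and 2.577 at day 90. APOE ran from 385.1 to 528.5 CPM in pluripotent wells and from 74.8 to 135.7 at day 90, which was 24.5% of its peak mean. Another annotated gene on the same strand overlaps each of them, so reads may be shared with it. APOM, a carrier of the lipid sphingosine-1-phosphate, was 0.968 to 1.073 CPM at day 3 and 9.469 to 46.33 at day 9. APOH stayed under 1 CPM in every group mean, and APOC2 never exceeded 6 counts in any library. The read-through transcript APOC4-APOC2, which covers APOC2, reached a mean of 1.16 CPM at day 20.

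The carriers of small molecules split in the same way. TTR (chr18:31557010-31599021, hg38, plus strand), which carries thyroxine and, with RBP4, vitamin A, was 0.6357, 1.005 and 0.4151 CPM at day 3 and 121.4, 112.1, 172.0, 91.86 and 177.1 in day 5 wells 1 to 5. At day 9 it was 196.2, 150.0, 507.9, 281.8 and 220.8 in wells 1, 10, 2, 3 and 4, and at day 14 138.0, 110.0 and 319.8. TTR was thus at 49.7% of its peak mean by day 5.

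AFP (chr4:73431138-73456174, hg38, plus strand), the fetal plasma carrier and classical marker of yolk sac and fetal liver, behaved differently. It was 6.436, 4.282 and 4.679 CPM at day 3 and 8.517, 17.08, 57.12, 1.956 and 9.298 in day 5 wells 1 to 5, so the day 5 wells overlapped with day 3. It was 37.33, 53.52, 328.5, 350.5 and 208.2 in day 7 wells 1, 10, 2, 3 and 4. At day 9 the same order of well numbers gave 1217, 244.3, 4221, 917.0 and 175.3. At day 14 AFP had the highest TPM of all members, 1292 ± 377 (SD, n = 3). At day 9 its mean was also the highest, 352.5 ± 382 (n = 5), but through well 2 at 996.8, since the others had 54.94 to 372.8 and APOA2 was higher than AFP in wells 10 and 4.

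ALB, albumin itself, remained low: its highest group mean was 40.7 ± 52.6 CPM at day 20 (SD, n = 3), where well 3 had 101.4 and wells 1 and 2 had 10.86 and 9.849. RBP4, the retinol carrier, had group means of 4.67 CPM at day 5 and 42.3 at day 9. TF, the iron carrier transferrin, had 1.38 and 28.6, and peaked at day 14 with 81.0. HPX, the haem scavenger hemopexin, peaked at 13.7 CPM at day 14. AMBP, the precursor of alpha-1-microglobulin and bikunin, peaked at 38.2 at day 20.

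The clotting genes included the earliest riser and several late ones. F10, clotting factor X, was 8.383, 8.452 and 7.849 CPM at day 3, and 20.25, 17.96, 19.82, 19.56 and 29.57 in day 5 wells 1 to 5. It stayed between 17.97 and 42.76 CPM through the day 7 and day 9 wells, a narrow range beside AFP. F2, prothrombin, was 1.033, 0.9308 and 0.4905 at day 3, and 18.62, 18.48, 19.87, 16.78 and 33.99 at day 5. No day 5 well of F10 or F2 overlapped with day 3.

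FGB, the fibrinogen beta chain, was 1.867, 1.378 and 1.396 CPM at day 3, and 50.44, 98.63, 265.2, 76.47 and 83.39 in day 5 wells 1 to 5. It was 18.01, 14.54, 160.6, 131.6 and 61.17 in day 7 wells 1, 10, 2, 3 and 4, then 285.8, 93.0, 705.6, 224.3 and 146.1 at day 9. Wells 1 and 10 of day 7 were thus lower than every day 5 well. FGA, the alpha chain, was 3.377, 2.159 and 3.472 at day 3, and its group means on days 5, 7 and 9 were 29.02, 20.4 and 123.7. The gamma chain FGG was at 1.65, 0.974 and 20.2 on those days.

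PLG, plasminogen, which dissolves fibrin, was at 1.304 to 3.942 CPM in the day 5 wells and 6.63 to 71.91 in the day 9 wells. HABP2, a plasma protease that binds hyaluronan, averaged 30.6 CPM at day 5 and 70.5 at day 9. KNG1, kininogen, reached a peak mean of 2.28 CPM at day 14.

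SERPINF2, the inhibitor of plasmin, was an early serpin, and SERPINA1, the alpha-1-antitrypsin that restrains neutrophil elastase, a late one. SERPINF2 was 0.437, 0.4096 and 0.3019 CPM at day 3, 18.85, 16.44, 18.84, 19.95 and 30.31 in day 5 wells 1 to 5, and 68.85, 54.11, 67.07, 90.17 and 93.84 in day 9 wells 1, 10, 2, 3 and 4. SERPINA1 was 1.47, 0.8563 and 1.207 at day 3 and 3.02, 3.592, 7.75, 0.9999 and 2.306 at day 5, with overlap. It was 9.899, 18.14, 53.84, 53.1 and 32.46 in day 7 wells 1, 10, 2, 3 and 4, and 468.6, 203.6, 663.0, 347.4 and 300.3 at day 9. The order of the 2 serpins reversed: the mean of SERPINA1 was below that of SERPINF2 at day 5, 3.53 against 20.9 CPM, and above it at day 9, 396.6 against 74.8.

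The other serpins were lower at day 9. SERPINA5, the protein C inhibitor, was at 1.99 CPM at day 5 and 38.1 at day 9. SERPINA6, the cortisol carrier, peaked at 4.85 CPM, SERPINC1, antithrombin, at 1.60, and SERPIND1, heparin cofactor II, at 12.7. VTN, vitronectin, an adhesion protein of plasma and matrix, was 0.7152, 0.5957 and 0.6792 CPM at day 3, and 21.45, 31.73, 64.18, 16.61 and 34.59 in day 5 wells 1 to 5. It was 130.0, 117.4, 219.9, 144.1 and 191.3 in day 9 wells 1, 10, 2, 3 and 4, above every day 5 well. AHSG, whose promoter is printed above, was 0.1549, 0.1597, 0.7707, 0.1304 and 0.2232 at day 5, then 45.42, 3.679, 238.8, 23.95 and 1.725 at day 9. Its relative FETUB, fetuin-B, never passed a group mean of 0.295 CPM.

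**Figure D2:**
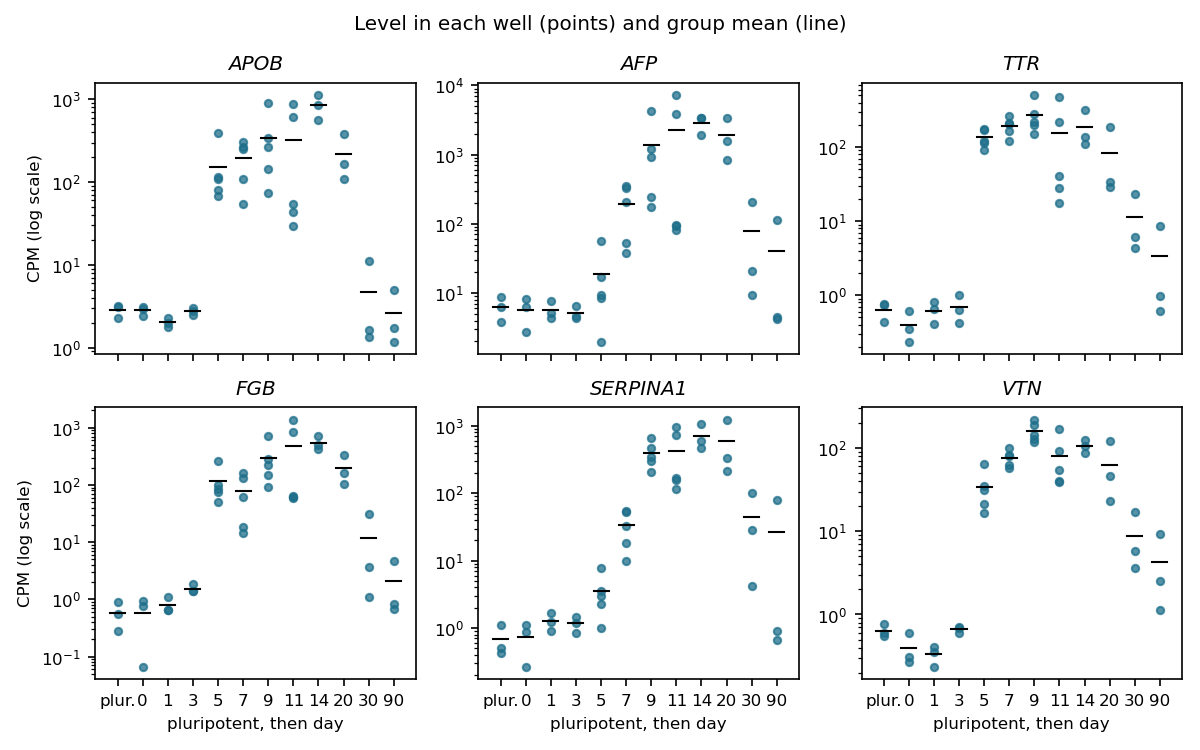
CPM on a log axis of APOB, AFP, TTR, FGB, SERPINA1 and VTN in each of the 44 wells (points) with the group mean (line), from the pluripotent group to day 90. APOB, TTR, FGB and VTN step up in all 5 day 5 wells. At day 5, AFP and SERPINA1 overlap with day 3 through well 4, and both are above day 3 in all 5 wells of day 7. The 5 wells of day 11 fall into a high and a low set.

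The steps up to day 3 precede the rise for which the genes were chosen, and a choice made on all groups favours genes that move little there. Of the 35 members, 8 had 3 counts or fewer in every library up to day 3 (APOC2, APOC3, APOH, KNG1, SERPINA6, SERPINC1, SERPIND1 and FETUB). All of these but APOC2 passed the filter on low counts through later groups, so nothing is read from the share of members called. Of the members, 2 fell from day 0 to day 1 in edgeR's quasi-likelihood test (Benjamini-Hochberg adjusted p under 0.05 and at least 1 on the log2 scale). That call was made for 13.5% of all genes in either direction and for 3.86% as higher and 9.66% as lower. F10 was 1.812, 1.331 and 1.554 CPM at day 0 and 0.2695, 0.2571 and 0.3114 at day 1, a log2 fold change of -2.46 ± 0.51 (SE, adjusted p = 0.000459). SERPINF2 was 2.718, 2.795 and 2.52 and then 0.1684, 0.482 and 0.4981, a log2 fold change of -2.78 ± 0.66 (adjusted p = 0.00195). Neither gene's wells overlapped. The median log2 fold change was -0.04 over the members and -0.03 over all genes.

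From day 1 to day 3, the last step under GSK3 inhibition, 4 members rose in the same edgeR test and none fell, beside 17.8% of all genes in either direction, 11% higher and 6.8% lower. F10 rose most, from 0.2571 to 0.3114 CPM in the day 1 wells to 7.849 to 8.452 at day 3, a log2 fold change of 4.85 ± 0.51 (SE, adjusted p = 1.74e-09). FGA was 0.2021, 0.3856 and 0.2491 at day 1 and 3.377, 2.159 and 3.472 at day 3, a log2 fold change of 3.40 ± 1.25 (adjusted p = 0.038). F2, at 0.1684, 0.2892 and 0.1245 CPM at day 1 and 0.4905 to 1.033 at day 3, rose by a log2 fold change of 2.05 ± 0.62 (adjusted p = 0.0108). APOC1, at 13.78, 11.09 and 10.59 and then 29.47 to 31.16, rose by 1.36 ± 0.42 (adjusted p = 0.0118). None of these 4 genes had overlapping wells. The members' median was 0.34, and that of all genes 0.07. Leaving out any 1 of the 6 wells left between 1 and 3 calls: 1 without day 1 well 3, and 2 without day 1 well 1, day 1 well 2 or day 3 well 1. FGA lost its call in each of the 6 fits, with adjusted p from 0.0501 to 0.117.

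Part of the transcription factors of liver and endoderm rose before day 5. Of 18 factors tested from a fixed list, 4 rose and 2 fell from day 0 to day 1, beside 13.5% of all genes in either direction. From day 1 to day 3, 6 rose and 2 fell, beside 17.8% of all genes. Those that rose by day 3 included SOX17 (log2 fold change 7.86), HNF4A (5.58), FOXA1 (3.49) and FOXA2 (2.09). HNF4A went from a mean of 0.18 CPM at day 1 to 8.99 at day 3 and 54.4 at day 5. From day 3 to day 5, 7 factors rose, CREB3L3, CEBPA, HNF4A, HHEX, ONECUT1 and FOXA1 among them, beside 5.75% of all genes higher (10.1% in either direction, 4.34% lower), and SOX17 fell by 3.21 on the log2 scale. From day 5 to day 9, 8 rose and none fell, beside 6.84% of all genes higher (10.2% in either direction, 3.39% lower), among them HNF4G, ONECUT1, PROX1, HHEX, NR5A2, NR1H4 and NR0B2. The last 2, a bile acid receptor and its partner, were at 3 counts or fewer in 5 and 3 of the 5 day 9 wells, so these calls rest on few reads. Without day 3 well 1 or day 3 well 2 the calls from day 1 to day 3 were 5, all higher, and without day 3 well 3 those from day 3 to day 5 were 4 higher and 1 lower.

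Other plasma protein genes of the liver that are not among the 35 moved in both directions. The 35 were chosen in part for a common course, so a less uniform course outside them follows from the choice and is not a result. Of a fixed list of 41, 34 were tested. From day 3 to day 5, 7 rose (AGT, CFB, F7, F12, PROC, ITIH4 and LPA) and 1 fell (ORM2), with 10.1% of all genes called. Without day 3 well 1, 2 or 3 these 8 calls were 4, 5 and 3. From day 5 to day 9, 9 rose and C3 fell, with 10.2% of all genes called in either direction. From day 20 to day 90, 9 fell and 4 rose, beside 15.4% of all genes in either direction, 8.35% lower and 7.04% higher. Those that rose included A2M (log2 fold change 2.21), C3 (1.98) and PROS1 (1.68). Of 14 receptors and secretion partners, A1CF, which pairs with the enzyme that edits APOB messenger RNA, followed the members. It rose from day 3 to day 5 (log2 fold change 2.88) and from day 5 to day 9 (4.17), and fell from day 20 to day 30 (-3.73). The first of these calls was lost without day 3 well 1, day 3 well 2 or day 5 well 3, and the last without day 20 well 3 or day 30 well 1. VLDLR and LPL, which take up or digest lipoproteins, were higher at day 90 than at day 20, by 1.60 and 3.99 on the log2 scale, whereas A1CF and LIPC were lower. limma on TPM called 1 of these 14 genes higher and 6 lower at day 90.

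The label of liver-type cells was checked against defining markers. The 3 markers AFP, APOB and TTR are themselves members and check nothing independently. Of 12 mature hepatocyte markers, CYP3A4, CYP7A1, TAT and G6PC had group means under 1 CPM throughout, at most 0.11, 0.34, 0.77 and 0.09. ASGR1, the asialoglycoprotein receptor, had its highest mean at day 9, 12.8 CPM, and CPS1 was at 81.3 at day 5 but at 43.4 already in pluripotent cells. The list's sum ranged from 44.5 to 51.5 CPM in pluripotent wells and reached at most 128.1 in a day 9 well. The yolk sac endocytosis markers CUBN, AMN, LRP2, DAB2 and DPP4 summed to 106.7 to 150.1, 241.6 to 487.7 and 86.7 to 202.4 CPM on days 3, 5 and 9, and CUBN, which encodes the receptor cubilin, had a mean of 44.05 CPM at day 5 against 1.485 at day 3. Markers of intestine, which also makes apolipoproteins, summed to 120.0 to 196.2 CPM at day 1, where CDX2, the defining intestinal factor, averaged 61.2, and to at most 101.9 in a day 9 well. The day 9 means were 66.8 for VIL1 and 4.11 for CDX2. Whether the transcripts came from hepatocyte-like or yolk sac-like cells was not tested.

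The wells of day 11 fell into separate sets. The 35 genes summed to 8317 and 14850 CPM in wells 1 and 2 and to 1032, 951.3 and 857.4 in wells 5, 6 and 7. AFP was 3890 and 7287 CPM in the first set and 80.34, 97.03 and 92.95 in the second, APOB 617.5 and 872.5 against 43.76, 54.7 and 29.59, and FGB 841.5 and 1385 against 58.37, 62.98 and 61.11. For 32 of 35 members both of wells 1 and 2 were above all others, which held for 34.3% of all genes tested. APOE, AMBP and SERPINF2 were the exceptions. The cardiomyocyte markers ran the other way, 7260 and 4710 CPM in wells 1 and 2 and 19150, 19010 and 17700 in wells 5, 6 and 7. RIN was 8.6 and 8 in the first set and 9.2 to 9.5 in the second. Total counts were 18014203 and 19060126 in the first set and 23631168 to 31323325 in the second. Each of the 5 wells was in a lane of its own. The part of RIN, depth and lane in the difference was not tested.

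With all wells, 3 members fell from day 9 to day 11 in edgeR's test, beside 1.63% of all genes in either direction and 1.24% lower. They were SERPINF2 (log2 fold change -1.59 ± 0.40, adjusted p = 0.0208), F2 (-1.42 ± 0.33, adjusted p = 0.0109) and F10 (-1.15 ± 0.30, adjusted p = 0.0267). SERPINF2 was 25.95, 33.49, 27.75, 23.15 and 14.16 CPM at day 11, all below the lowest day 9 well at 54.11. F2 was 15.26, 25.28, 11.66, 9.08 and 6.284, all below the lowest day 9 well at 31.01. F10 was 13.98, 23.57, 9.423, 8.412 and 11.29, and overlapped with day 9. AFP (0.76 ± 1.01, adjusted p = 0.755), APOB (-0.09 ± 0.69, adjusted p = 0.969) and TTR (-0.80 ± 0.62, adjusted p = 0.545) did not pass.

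The count depended on the wells included. In comparisons chosen after the data were seen, 22 members fell from day 9 when wells 1 and 2 were left out (3.77% of all genes called), and 3 rose, TF, FGG and SERPIND1, when wells 5, 6 and 7 were left out (5.06%). Leaving out day 11 well 2 alone gave 7 lower, and leaving out day 9 well 3 or day 11 well 7 gave 1. The transcription factors gave 6 lower with all wells, FOXA1, FOXA2, FOXA3, HNF4G, ONECUT1 and HHEX, with FOXA1 at 26.63 to 65.44 CPM in the day 9 wells and 6.249 to 17.46 in the day 11 wells. Without wells 1 and 2 there were 10 lower, and without wells 5, 6 and 7 there was 1.

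From day 11 to day 20 the same division set the result. With all wells, 2 members fell, beside 5.22% of all genes in either direction and 1.65% lower: APOM (log2 fold change -1.94 ± 0.59, adjusted p = 0.0305) and APOC1 (-1.16 ± 0.39, adjusted p = 0.0483), by edgeR. APOM was 15.41, 24.22, 3.434, 2.893 and 2.555 CPM at day 11 and 1.496, 1.915 and 3.98 at day 20, and the groups overlapped. APOC1 was 15.12 to 47.88 at day 11 and 9.899, 4.104 and 18.91 at day 20, also with overlap. Without day 11 wells 1 and 2, 13 members were higher at day 20 (12.2% of all genes called), and without wells 5, 6 and 7, 7 were lower (3.57%). Leaving out single wells gave 0 to 4 calls: 0 without day 11 well 1, day 20 well 1 or day 20 well 2, 1 lower without day 11 well 5, 4 lower without day 20 well 3, and 2 higher without day 11 well 2. No direction can be given for the list over this interval.

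**Figure D3:**
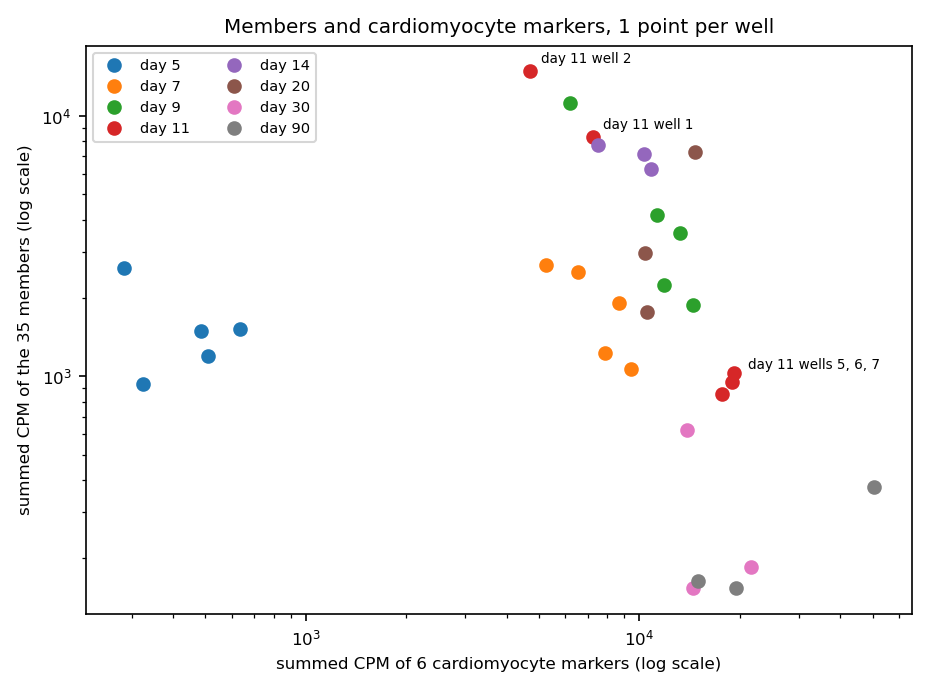
Summed CPM of the 35 genes against summed CPM of 6 cardiomyocyte markers, both on log axes, 1 point per well from day 5 to day 90, coloured by day. At day 11, wells 1 and 2 lie at 8317 and 14850 CPM for the members, and wells 5, 6 and 7 lie between 857.4 and 1032 with the higher cardiomyocyte sums.

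The summed level fell from 4013 CPM at day 20 to 320.8 at day 30, but several members had fallen from their peak before day 20. MTTP had group means of 143.5 CPM at day 5 and 17.5 at day 20, and APOM 24.2 at day 9 and 2.46 at day 20. APOB had 854.4 at day 14 and 219.8 at day 20, whereas 3 members had their peak at day 20. From day 20 to day 30, 15 members were called lower and none higher by edgeR, beside 2.02% of all genes in either direction and 1.26% lower, with a median log2 fold change of -3.34 over the members and -0.05 over all genes. The genes were chosen for a loss by day 90, and most of the fall from day 20 to day 90 (230.7 CPM) lies in this step. The count, the median and the adjusted p-values are therefore not independent of the choice and serve as a description only. APOB was 109.9, 167.7 and 381.7 CPM at day 20 and 1.629, 1.328 and 11.16 at day 30, a log2 fold change of -5.52 ± 1.09 (SE, adjusted p = 0.00262). AHSG went from 67.49, 24.48 and 91.28 to 0.1629, 0.3905 and 3.427 (-5.47 ± 1.47, adjusted p = 0.0304). PLG went from 8.787, 9.575 and 14.86 to 0.08145, 0.2343 and 0.6483 (-5.08 ± 1.11, adjusted p = 0.00636). APOA2 went from 31.19, 23.94 and 59.59 to 0.733, 0.6248 and 3.427 (-4.54 ± 0.86, adjusted p = 0.00156). For these 4 the day 20 and day 30 wells did not overlap.

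APOC1, APOE, MTTP, TF, AMBP, FGB, FGG, F2, SERPINA1, SERPINF2 and VTN were the other 11 called lower. AFP, at 1587, 840.4 and 3390 CPM at day 20 and 20.57, 9.45 and 208.7 at day 30, was not called (log2 fold change -4.61 ± 1.51, adjusted p = 0.0921 by edgeR), nor was TTR (-2.87 ± 0.87, adjusted p = 0.0616). Of the 18 transcription factors, 6 fell in the same step, HNF4A, FOXA1, FOXA2, FOXA3, CEBPA and CREB3L3, or 3 without day 30 well 1 and 10 without day 30 well 3. In both groups well 3 was often the highest: day 20 well 3 was highest for 31 of 35 (34.1% of all genes), and day 30 well 3 for 28 (34.1%). Leaving out day 30 well 3 gave 23 calls, and leaving out day 30 well 1 or well 10 gave 6 and 9. A fit on the 6 libraries of these groups alone called 0 members, with 28 at an unadjusted p under 0.05, while DESeq2 on all libraries called 22.

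At day 90, 30 of 35 members had a mean under 10% of their peak and 13 a mean under 1%. Against day 14 the mean was at least 4-fold lower for 31 members (11.5% of all genes), and against day 30 for 9 (5.92%). For several members what remained was in 1 well. AFP was 4.482, 113.2 and 4.146 CPM in day 90 wells 2, 4 and 5, SERPINA1 0.8964, 79.32 and 0.6723, SERPINA5 0.08965, 17.19 and 0.3362, HABP2 0.04482, 20.53 and 0.1681, and AMBP 0.1345, 13.08 and 0.05603. Well 4 was highest for 22 of 35 members, which held for 38.2% of all genes, and it also had the highest cardiomyocyte sum, 50660 CPM against 14990 and 19490. In wells 2 and 5 AFP was within the range of the pluripotent wells, 3.798 to 8.72 CPM.

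The variation in common between wells was examined on deviations from the group mean of log2(CPM + 0.5), for the 31 members with a group mean of at least 1 CPM at day 5, 7, 9 or 11. Over the 15 wells of days 5, 7 and 9 the median correlation between 2 members was 0.676, and 80.2% of the 465 combinations were above 0. Among the 5 wells of days 5, 7, 9 and 11 it was 0.573, 0.712, 0.823 and 0.967 in that order, the last over wells that fall into separate sets. All points share library, depth and lane, and the rule used this feature, so these values are a description. At day 9, well 2 was the highest for 28 of 35 members, against 20.2% of all genes, with a summed 11270 CPM beside 1877 to 4181 in the others. At day 5, well 3 was the highest for 23 (21.6% of all genes), with 2613 CPM beside 935.5 to 1517.

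Over these 15 wells the members' mean deviation ran with the yolk sac endocytosis markers (Pearson r 0.949, Spearman rho 0.943, and r 0.940 without the 2 wells farthest from the median) and against the cardiomyocyte markers (r -0.77, rho -0.679, and -0.51 without those wells). It ran with the fibroblast markers COL1A1, COL3A1, DCN and LUM as well (r 0.796, rho 0.679, and 0.747). The mature hepatocyte markers followed nearly as closely as those of the yolk sac (r 0.946, rho 0.939, and 0.905), and the intestine markers less so (r 0.81, rho 0.729, and 0.664); the differences between these r values were not tested. In day 9 well 2, the highest for the members, the cardiomyocyte sum was 6196 CPM against 11290 to 14430 in the other wells, and the fibroblast sum 4756 against 1718 to 2410. With log2 total counts r was 0.187 and with RIN -0.117. Over 20 wells, with day 11 added, these were -0.552 and -0.529, or -0.268 and -0.315 without the 2 wells farthest from the median. The part of cardiomyocytes, fibroblasts, depth and RIN in the members' levels was not tested.

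The members did not all vary together. Each was compared with the mean of the others over the same 15 wells. For 25 of the 31, r was between 0.644 (VTN) and 0.970 (APOA1 and MTTP), and for the other 6 it was under 0.3: HPX 0.219, F2 0.112, HABP2 -0.0169, SERPINF2 -0.077, AMBP -0.345 and SERPINA5 -0.421. The SD between wells on the log2 scale was as large as 1.94 for RBP4, 1.81 for AHSG and 1.68 for AFP, and as small as 0.262 for SERPIND1, which varied with the others (r 0.679), and 0.27 for F2. In day 9 wells 1, 10, 2, 3 and 4, SERPINA5 was 25.89, 33.11, 22.99, 30.2 and 78.42 CPM and HABP2 50.76, 46.88, 44.64, 77.35 and 132.8. Well 4 was thus the highest for SERPINA5 and HABP2, as it was for SERPINF2 and AMBP, where AHSG (1.725) and AFP (175.3) were lowest.

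The 4 least like the rest, SERPINA5, AMBP, SERPINF2 and HABP2, correlated among themselves at 0.219 to 0.711 (median 0.57), and their mean had r -0.297 with that of the other members. The transcription factors divided likewise, in a comparison chosen after the values were seen. FOXA1 had r 0.852 with the mean of these 4 and -0.458 with that of the others, and HHEX had 0.770 and -0.467. CEBPA had -0.222 and 0.951, HNF4A -0.0281 and 0.893, and CREB3L3 -0.127 and 0.841. FOXA1 was 32.38, 30.71, 26.63, 47.19 and 65.44 CPM in day 9 wells 1, 10, 2, 3 and 4, while CEBPA was 35.07, 22.5, 70.5, 26.74 and 23.72. At day 14, SERPINA5 was 17.99, 26.26 and 146.6 CPM in wells 2, 3 and 6, and AFP 3393, 3350 and 1902. The well highest for SERPINA5 was thus the lowest for AFP, as at day 9. This opposition did not hold later: well 3 at days 20 and 30 and well 4 at day 90 were the highest for both genes. At day 11 both genes were higher in wells 1 and 2 than in the other wells.

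**Figure D4:**
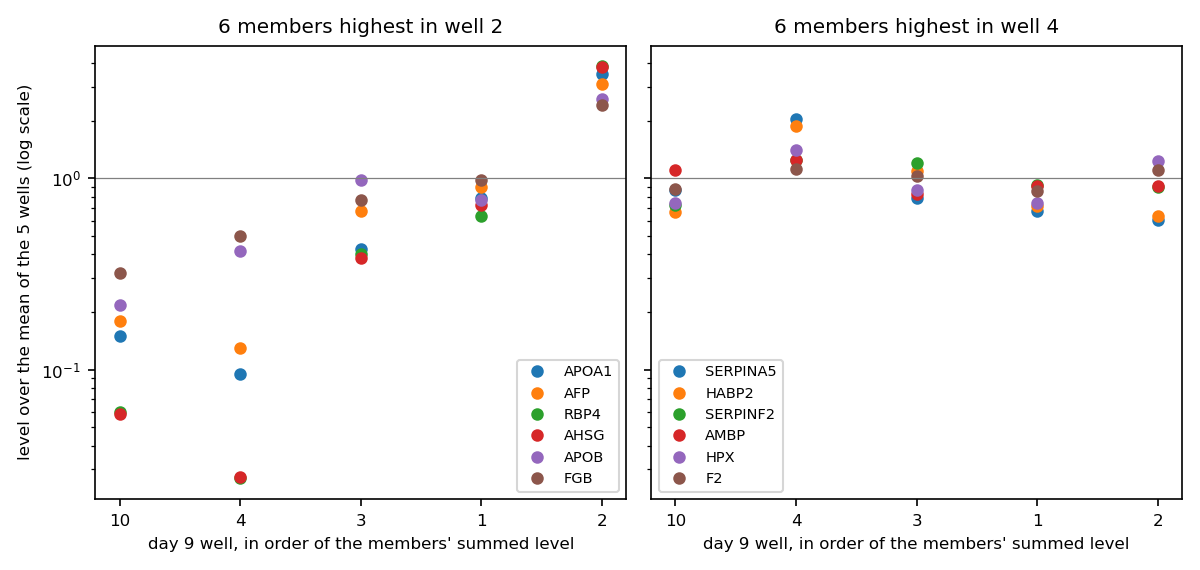
Level in each day 9 well over the mean of the 5 wells (log axis), with wells placed in order of the members' summed level, for 6 members highest in well 2 (left) and 6 highest in well 4 (right). APOA1, AFP, RBP4, AHSG, APOB and FGB are highest where the sum is, at 11270 CPM, while SERPINA5, HABP2, SERPINF2, AMBP, HPX and F2 stay within a narrower range and peak in well 4.

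Many of the 35 lie beside another member in the genome: AFP and ALB within 59.1 kb of chromosome 4, the 3 fibrinogen genes within 50.01 kb of the same chromosome, and APOA1, APOC3 and APOA4 within 17.3 kb of chromosome 11. Neighbours nevertheless differed in level and timing. The ratio of group mean TPM of FGB to FGG was 73.9, 97.8, 16.2 and 5.33 on days 5, 7, 9 and 11, and that of FGA to FGG went from 10.7 at day 5 to 1.13 at day 11. The day 11 value of FGB to FGG comes from wells 1 and 2: over the 5 wells it ran from 5.04 to 21.6, and FGB was 17.85, 20.3 and 18.5 TPM in wells 5, 6 and 7 with FGG at 1.23, 0.94 and 1.3, no lower in ratio than the day 9 wells (10.7 to 20.3). Fibrinogen needs all 3 chains in the assembled protein. FGB to FGA stayed between 3.93 and 6.93 over days 5 to 20. At day 5 the lowest ratio of FGB to FGG in a well was 35.2, above the highest at day 9, 20.3.

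APOA1, which the early wells already held, was 275, 14.0 and 4.06 times APOC3 in mean TPM on days 5, 9 and 14, and 1390, 50.9 and 9.22 times APOA4. AFP to ALB was 25.0, 186, 297, 44.3 and 11.6 on days 5, 9, 11, 20 and 30. Its range over wells was 46.1 to 283 at day 9, 47.8 to 334 at day 11 and 46.9 to 613 at day 14. The day 11 mean comes from wells 1 and 2, since in wells 5, 6 and 7 AFP was 18.64, 25.33 and 22.28 TPM with ALB at 0.39, 0.33 and 0.22. APOB to MTTP, which are not neighbours but work together, went from 0.292 at day 5 to 1.13 at day 9 and 5.80 at day 14. The highest well of day 5, 0.594, was below the lowest of day 14, 3.55. These ratios compare genes per length, but low denominators at day 5, such as 0.114 TPM for APOA4, make the earliest ratios imprecise.

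**Figure D5:**
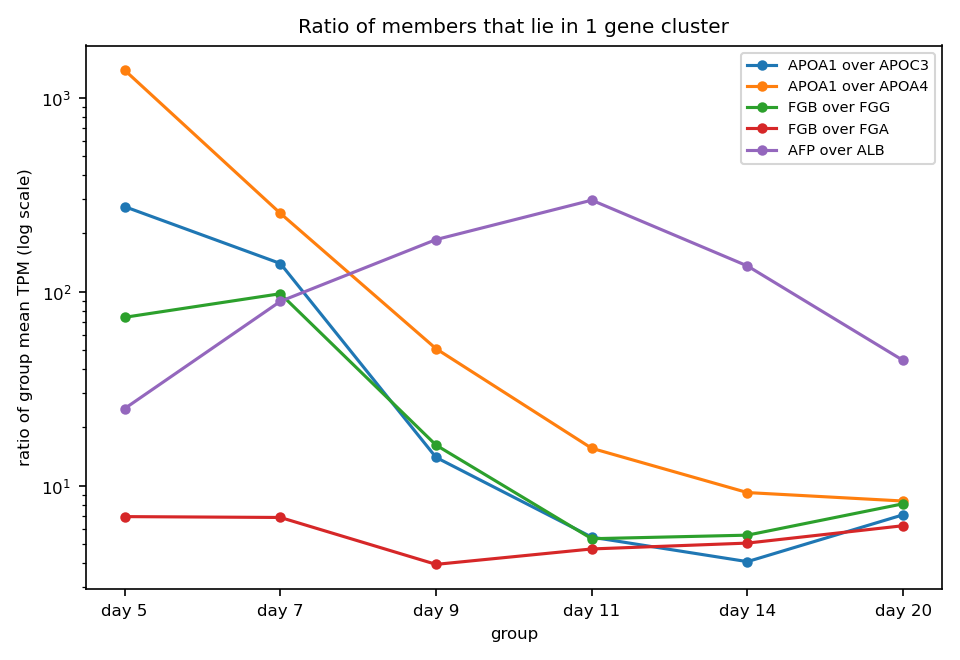
Ratio of group mean TPM between members of 1 gene cluster (log axis) at days 5 to 20, for APOA1 over APOC3 and APOA4, FGB over FGG and FGA, and AFP over ALB. The ratios of APOA1 to APOC3 and APOA4 and of FGB to FGG are lower at day 9 than at day 5, FGB over FGA stays between 3.93 and 6.93, and the day 11 points, such as 297 for AFP over ALB, are set by wells 1 and 2.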

How the data were processed

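Total RNA from 44 wells of H1 cells was sequenced as stranded paired-end libraries. The deposited estimated counts and TPM per gene were made by the authors, per the submitters' processing notes with cutadapt, STAR 2.5.2b and RSEM 1.2.31 on hg38; the gene annotation and the strand setting of the counting are not given in the sources used here. The RIN, treated here as a score, was deposited by the authors with the lane of each library. Symbols came from GENCODE release 29, which named 56769 of 60499 identifiers, and 18 of the 35 members overlap another annotated gene.

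Estimated counts were rounded to whole numbers (93.8% already were) and scaled by TMM (factors 0.779 to 1.165). After edgeR's filter on low counts 22955 genes were tested, among them 34 members; APOC2 was left out. The test was edgeR's quasi-likelihood test (edgeR 4.0.16, R 4.3.3), with 1 mean per group over all 44 libraries, Benjamini-Hochberg adjustment over all genes, and a call at an adjusted p under 0.05 with a log2 fold change of at least 1. Steps that the choice of members did not use directly were tested for members (day 1 against 0, 3 against 1, 11 against 9, 20 against 11). Day 30 against 20 was also tested. It holds most of the fall from day 20 to day 90 that the choice used, so its p-values are descriptive. Days 5 against 3, 9 against 5 and 90 against 20 were tested for the other gene lists. The members and the lists were chosen with earlier results of these data known. Genes were named by a rule: the 3 markers, the member with the highest TPM of each role group at day 9, and up to 4 members called per comparison. Other members are given as levels only. Some list genes are not reported here.

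Alternatives were DESeq2 1.42.0, limma 3.58.1 on log2(TPM + 0.1), other scaling, no filter, only the compared groups, a lane term, a replicate block and leaving out each library. Counts of 3 or fewer were read as the floor, which covers counting error only. The scripts were tested on simulated data.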

Additional observations from a re-analysis of the deposited data

Results flagged for a closer look

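In groups of 5 wells, a well was singled out where its gap to the nearest other well took up more than 0.71 of the range of the group. Of 64 groups examined, for 15 members and the members' sum, 13 had such a well. The cut is meant to flag about 1 in 20 independent groups by chance. The members were chosen in part for varying together, so the groups are not independent and the 13 cannot be compared with that rate. Day 9 well 2 stood apart 5 times. AFP was 4221 CPM there with the next well at 1217, FGA 263.1 with the next at 108.1, AHSG 238.8 with the next at 45.42, and PLG 71.91 with the next at 21.42. The summed level of the members was 11270 CPM in that well, and 4181 in the next.

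Day 5 well 3 stood apart for AFP (57.12 CPM, next 17.08), APOB (395.4, next 113.8), FGB (265.2, next 98.63) and AHSG (0.7707, next 0.2232). Day 5 well 5 stood apart for another set, the clotting and plasmin genes SERPINF2 (30.31 CPM, next 19.95), F10 (29.57, next 20.25) and F2 (33.99, next 19.87). F10 was low in day 7 well 10, at 20.39 CPM with the next well at 23.65.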

How the results depend on the processing

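The summed level of the members, recomputed for days 5, 9, 20 and 90, moved by less than 1 SD between wells, but leaving out a library gave 2964 to 5313 CPM at day 9 and 2380 to 5134 at day 20. The log2 fold changes of the named members kept their sign, and 33 of the values from fits leaving out a library and 27 from the other alternatives no longer passed the test. From day 0 to day 1, 2 members were called in every leave-one-out fit, and limma on TPM called 0 (2 at an unadjusted p under 0.05). From day 1 to day 3, limma called 1, a fit on the compared groups alone 11, and fits leaving out a library 1 to 3. From day 9 to day 11, limma called 0 (5 at an unadjusted p under 0.05), the fits without day 11 wells 1 and 2 or without wells 5, 6 and 7 called 22 lower and 3 higher, and fits leaving out a library 1 to 7. From day 11 to day 20, limma called 1 higher, the compared groups alone 0 (4 at an unadjusted p under 0.05), the fits without wells 1 and 2 or 5, 6 and 7 called 13 higher and 7 lower, and fits leaving out a library 0 to 4, of which 2 higher without day 11 well 2. From day 20 to day 30 the compared groups alone called 0 (28 at an unadjusted p under 0.05), and fits leaving out a library 6 to 23. The fits by day 11 wells were chosen after the data were seen. The cause of these changes was not tested.

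Between wells with the same number r ran from -0.282 to 0.367, and between wells with different numbers from -0.507 to 0.582. With few wells per group, and not every day compared, these values cannot show whether the numbers pair the wells. With a replicate block the calls were 2, 5, 2, 4 and 16 in the order above, and with a lane term 2, 4, 2, 2 and 13. Of the other plasma protein genes, 1 was called from day 9 to day 11 in the opposite balance without wells 5, 6 and 7. From day 20 to day 30, leaving out a library gave 1 to 8 calls among them, with the balance turned at 1 without day 30 well 1, and 0 to 2 among the receptors and partners, with the balance turned at 1 without day 20 well 3. For the latter limma called 7 from day 20 to day 90, 1 higher and 6 lower. The shallowest library, of 6937136 counts, puts the floor at 0.432 CPM.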

Other observations

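Outside the lists, genes whose level followed the members closely over the 44 libraries included AKR1D1 (r 0.968), which reduces steroids on the way to bile acids, KLB (0.957), a co-receptor for the hormone FGF19, and the organic anion transporter SLCO2B1 (0.944). SMLR1, HAVCR1, GSTA2, DUSP9, GJB1 and GSTA1 followed, with r from 0.942 to 0.914. AKR1D1 had group means of 0.141, 21.7 and 0.0419 CPM on days 3, 9 and 90. The libraries share their day, so these r values describe the course and have no test.

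Libraries before day 5 shared lanes with libraries rich in the members. The level of AFP in the early libraries of lanes 1, 2, 3 and 5 was between 0.457% and 0.932% of the level over all reads of the lane, and in lane 4, where that level was 58.9 CPM, it was 5.61%. Over the 12 early wells, the r of the level with that of the lane differed between members, from 0.899 for ALB to -0.441 for AHSG. It was 0.822 for SERPINA1, 0.685 for TTR, 0.672 for FGB and 0.466 for AFP, but 0.0914 for APOA1 and -0.155 for APOB. Several further members were negative, AMBP (-0.322) and SERPINA5 (-0.275) among them. The part of the lane in these low levels was not tested.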
